A study of Canis lupus familiaris with 186 samples.

Results

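RB1 and 9 genes that act with it on the passage from G1 to S phase (CDKN2A, CDKN2B, CDK4, CDK6, CCND1, CCND2, CCND3, E2F1 and CCNE1) were followed across primary canine osteosarcomas. They were chosen by name, as 10 of the 37952 genes in the deposited table of counts. The table was read for 186 tumors, 1 per dog, with 93 dogs enrolled in trial COTC021 and 93 in COTC022. The dogs were pets of mixed age, breed and sex with appendicular osteosarcoma and no visible metastasis, and every biopsy was taken before any treatment. All later lost the limb and were then randomized to carboplatin alone or with rapamycin, and which trial stands for which arm was not given in the sources used here. GS-1 cluster, disease-free interval and survival were not analysed here. The signature entered as a score computed from the counts.

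Proliferating cells leave G1 when the retinoblastoma protein, encoded by RB1, is phosphorylated by CDK4 or CDK6 bound to a D-type cyclin (CCND1, CCND2 or CCND3). Unphosphorylated RB1 protein holds the E2F transcription factors, of which E2F1 is the best known, and its phosphorylation releases them to switch on genes of DNA replication as well as CCNE1. Cyclin E1 then drives CDK2, which phosphorylates RB1 protein further. CDKN2A and CDKN2B lie side by side and encode p16 and p15, inhibitors of CDK4 and CDK6, and CDKN2A also encodes ARF, which stabilizes p53. Loss of RB1 or of the CDKN2A locus and gain of the cyclin or kinase genes are well-known lesions of osteosarcoma in people and dogs. DNA was not measured in these libraries.

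The 186 libraries held between 6587634 and 27420867 counts each (median 10797170). In 50 of them the deposited column name carried a doubled "_" mark. These are called the deeper libraries, since their median total was 19440456 counts against 9851682 in the other 136. They held 18 tumors of COTC021 and 32 of COTC022. Summed levels of 8 osteoblast markers ranged from 983 to 152067 CPM (counts scaled to a common library total) with a median of 25834, and 5 osteoclast markers from 84.1 to 40078 CPM. In bulk tissue, fewer cells of a type and less RNA per cell cannot be told apart. Levels given here are CPM scaled with TMM, a normalization for library composition. They are not corrected for gene length and are compared between tumors, never between genes. A small constant was added to each count before scaling, so a gene with no counts has a low level set by depth.

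RB1 (chromosome 22, 3028586 to 3174226, build UU_Cfam_GSD_1.0) was detected in every tumor. Its level was lowest at 3.82 CPM, had a median of 42.7 CPM and was highest at 109 CPM. The SD of its log2 level was 0.62, and 50.1% of all genes kept by the filter on low counts varied less. Medians were 42.9 CPM in COTC021 and 42.1 CPM in COTC022. The gene was thus an ordinary one in spread, with a tail of a few low tumors.

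CDKN2A (chromosome 11, 41337054 to 41366301) was the most variable member. It had 0 counts in 10 tumors, no more than 3 counts in 39 tumors and at least 100 counts in 41. A count of 0 allows a true mean of up to 3 counts. The median level was 1.18 CPM, and the highest, in COTC022 tumor 23, was 124 CPM. The SD of the log2 level was 2.87, larger than that of 99.2% of genes. Tumors with almost no CDKN2A RNA and tumors with abundant CDKN2A RNA occurred in both trials, with 0 counts in 5 tumors of each and at least 100 counts in 22 of COTC021 and 19 of COTC022. The deeper libraries held 3 of the tumors at 0.

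CDKN2B (chromosome 11, 41374892 to 41378057) was hardly detected. It had 0 counts in 104 tumors and at most 12.29 counts in any, and it was the 1 member that the filter on low counts removed. In 33 tumors both CDKN2A and CDKN2B carried fractional expected counts, and in 33 of those the sum of both was whole within 0.02. Expected counts divide a shared read between genes, and the counts of this pair are uncertain to that extent. CDK4 also carried fractional counts, in 48 tumors.

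The kinases differed in spread. CDK4 (chromosome 10, 2166806 to 2169759) was lowest at 123 CPM, had a median of 243 CPM and was highest at 672 CPM. Its SD of 0.51 on the log2 scale exceeded that of only 31.0% of genes. CDK6 (chromosome 14, 18137407 to 18377659) ranged from 2.72 to 93.8 CPM around a median of 19.4 CPM, with an SD of 0.82.

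Among the D-type cyclins, CCND1 (chromosome 18, 48958012 to 48967584) ranged from 3.14 to 249 CPM with a median of 23.7 CPM. CCND2 (chromosome 27, 5499635 to 5529695) ranged from 0.763 to 837 CPM with a median of 29.9 CPM, and its log2 SD of 2.16 was above that of 96.5% of genes. CCND3 (chromosome 12, 10782466 to 10877073) had a median of 63.3 CPM and reached 5269 CPM in 1 tumor. The 3 genes differed in how they varied. CCND2 was spread broadly over all tumors, whereas most of the range of CCND3 came from a small upper tail.

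E2F1 (chromosome 24, 23399012 to 23408523) ranged from 3.38 to 175 CPM with a median of 27.2 CPM. CCNE1 (chromosome 1, 122568738 to 122579545) ranged from 2.53 to 34.2 CPM with a median of 7.92 CPM. Log2 SDs were 0.85 and 0.63, against a median of 0.62 over all genes kept.

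**Figure D1:**
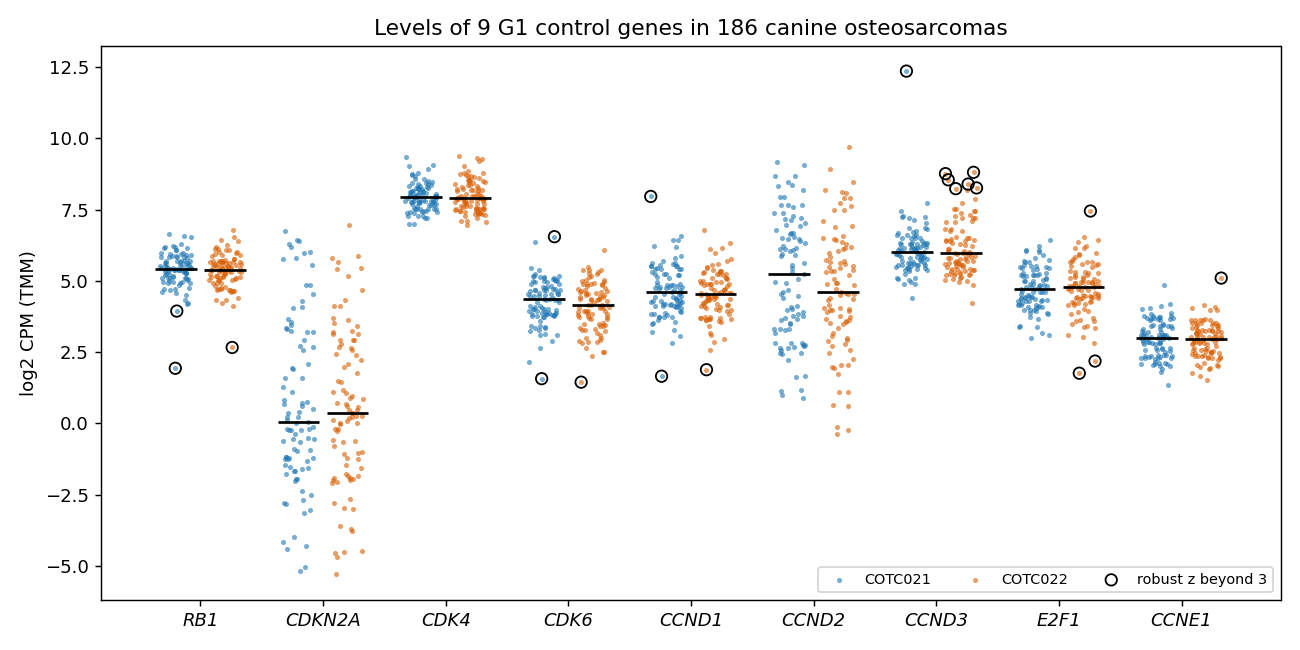
Level of each gene in every tumor (log2 CPM, TMM), with COTC021 in blue and COTC022 in orange; bars are the trial medians and circled points have a robust z beyond 3. CDKN2A and CCND2 are spread widely in both trials, 6 of the 7 circled CCND3 tumors belong to COTC022, and levels of different genes are not comparable on this axis.

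The trials are the grouping that the labels give, and tumors were sampled before the trial treatment. No member passed the test between them. By limma-voom, differences of COTC022 minus COTC021 ranged from -0.40 (SE 0.31, CCND2, adjusted p = 0.72) to 0.12 (SE 0.14, CCND3, adjusted p = 0.84) on the log2 scale, and 0 of 9 members had an unadjusted p under 0.05. Over all 13422 genes tested, 2 were called, or 0.0149%. edgeR and DESeq2 also called 0 of the 9 members. Levels overlapped between the trials for every member. A p that misses the threshold does not show that the trials were alike.

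The question put to these data first was whether CDKN2A rises as RB1 falls, as is known of p16 in cells that have lost RB1. Across 186 tumors, log2 levels of both genes had a Pearson r of -0.204 (permutation p = 0.0054, two-sided) and a Spearman rho of -0.075 (permutation p = 0.31). The rank measure did not pass. Without the 2 tumors farthest from the RB1 median, COTC022 tumor 30 and COTC021 tumor 72, r was -0.115 (permutation p = 0.12), and the relation rests on those tumors. Within COTC021 r was -0.345 (permutation p = 0.00051) and rho -0.231 (permutation p = 0.026). Within COTC022 they were -0.044 (permutation p = 0.68) and 0.094 (permutation p = 0.37). In the 136 other libraries r was -0.315 (permutation p = 0.00014), and in the 50 deeper libraries 0.188 (permutation p = 0.19). The relation therefore did not hold within every trial or library set. Adjusted over the 12 correlations of this family (r and rho in all tumors, in each trial, in each library set and without those tumors), p was 0.022 for r over all tumors and 0.0031 and 0.0017 for r in COTC021 and in the other libraries, and rho had an adjusted p of 0.078 in COTC021.

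The tumors with the least RB1 were then read one by one. The lowest RB1 levels were 3.82, 6.33, 15.3, 17.5 and 18.4 CPM, in COTC021 tumor 72, COTC022 tumor 30, COTC021 tumor 38, COTC022 tumor 88 and COTC021 tumor 42. CDKN2A stood at 108, 59.1, 84.3, 42.6 and 0.047 CPM in the same order. The next 5 tumors, between 18.5 and 20.2 CPM of RB1, held CDKN2A at 78.6, 0.025, 65.3, 0.292 and 0.582 CPM. The values of 0.047 and 0.025 CPM are at the floor that depth and the added constant set, and are not measured levels. Among these 10 tumors CDKN2A was thus either at 42.6 CPM or more or below its median of 1.18 CPM, with nothing between 0.582 and 42.6 CPM. Seen from the other end, 4 of the 5 tumors with the most CDKN2A ranked 1, 13, 3 and 6 from the lowest in RB1, and the remaining one, COTC022 tumor 23, with the most CDKN2A of all, had 51.9 CPM of RB1. In the 10 tumors with the most RB1, CDKN2A was at most 5.99 CPM. Over all 186 tumors 22.0% had 100 CDKN2A counts or more and 21.0% had 3 or fewer. Low values and both extremes were thus common in the whole series. These are values of tumors picked by level and carry no test.

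**Figure D2:**
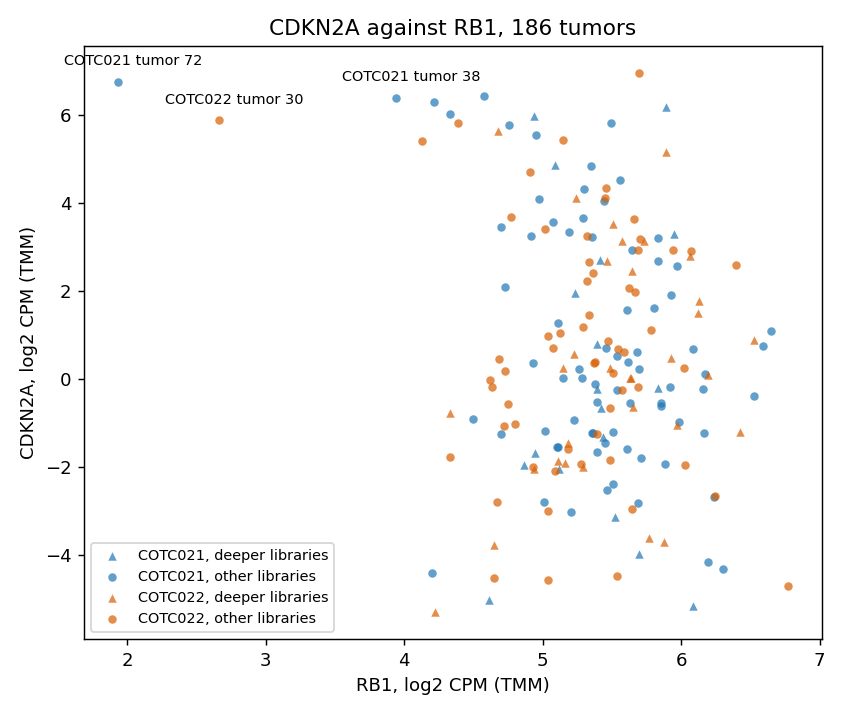
CDKN2A against RB1 in each of 186 tumors (log2 CPM, TMM), colored by trial and with triangles for the deeper libraries. The 3 tumors with the lowest RB1, labelled, all have CDKN2A of 59.1 CPM or more, and none of them is among the deeper libraries. In the 10 tumors with the most RB1 CDKN2A is at most 5.99 CPM, although the tumor with the most CDKN2A has 51.9 CPM of RB1. Over all 186 tumors only 22.0% have 100 CDKN2A counts or more.

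Each member's level was next used as the explanatory variable for every other gene, with the trial as covariate. A slope is the change in log2 CPM of a gene for each doubling of the member, and a gene was called at an adjusted p under 0.05 by limma-voom with Benjamini-Hochberg adjustment over all genes tested. Of 36 pairs of members, 8 were called in both directions of fitting, 2 in 1 direction and 26 in neither.

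Along RB1, 4 of 8 members were called, all lower where RB1 was higher, while 27.1% of all genes tested were called and 14.1% were lower. CDKN2A fell by 1.20 for each doubling of RB1 (SE 0.28, adjusted p = 0.00057). CCNE1 fell by 0.39 (SE 0.07, adjusted p = 5.7e-06), CDK4 fell by 0.27 (SE 0.06, adjusted p = 0.00014) and E2F1 fell by 0.34 (SE 0.10, adjusted p = 0.0042). The cyclin D genes and CDK6 were not called, with slopes of 0.27 for CCND3 (adjusted p = 0.065), -0.26 for CCND2, 0.06 for CCND1 and -0.05 for CDK6.

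The called slopes were not equally firm. CCNE1 and CDK4 were called in each trial alone and without the 2 tumors lowest in RB1, where their slopes were -0.32 (adjusted p = 0.0027) and -0.27 (adjusted p = 0.0015), but not in the deeper libraries alone, where they were -0.44 (adjusted p = 0.20) and -0.27 (adjusted p = 0.30). The CDKN2A slope without those tumors was -0.40 (adjusted p = 0.48). It was -1.74 in COTC021 alone (adjusted p = 8.3e-05) and -0.15 in COTC022 alone (adjusted p = 0.88). The difference of slopes between the trials was 1.60 (unadjusted p = 0.0064, adjusted p = 0.76), and that between the library sets was 2.54 (unadjusted p = 0.0028, adjusted p = 0.34), so neither difference passed over all genes. CCND3 was called without those tumors (0.34, adjusted p = 0.040). The E2F1 slope kept its call in 7 of 13 alternatives. It was -0.16 by edgeR (adjusted p = 0.14) and by DESeq2 (adjusted p = 0.18), -0.27 in COTC021 alone (adjusted p = 0.11), -0.42 in COTC022 alone (adjusted p = 0.071) and -0.51 in the deeper libraries alone (adjusted p = 0.21), and it was not called by edgeR without the tumor highest in CCND3 either (adjusted p = 0.12).

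Other genes of the G1 machinery divided along RB1. Of 25 listed, 5 rose and 5 fell, beside 13.0% of all genes that rose. Those that rose were led by RBL2, which encodes the RB1 relative p130 (slope 0.41, adjusted p = 1.1e-05), and by the CDK inhibitor CDKN1A (0.40, adjusted p = 0.00088), with CDKN1B (0.20) and MDM2, the p53 ubiquitin ligase (0.16), behind them. Those that fell were led by MYC (-0.38, adjusted p = 0.00066), SKP2, which targets p27 for degradation (-0.37, adjusted p = 0.0012), the CDK inhibitor CDKN2C (-0.33) and the CDK subunit CKS1B (-0.26).

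Of 22 E2F target genes of S phase, 8 fell and 0 rose along RB1. The steepest were the replication licensing genes ORC1 (-0.45, adjusted p = 0.00056), CDC6 (-0.35), CDT1 (-0.35) and GINS2 (-0.35). Of 12 mitotic genes, 8 fell and 0 rose, among them CDC20 (-0.39), AURKA (-0.38) and CCNB2 (-0.34). The medians of the slopes were -0.21 for the E2F targets and -0.26 for the mitotic genes, against 0.0031 over all genes. Without the 2 tumors lowest in RB1, 5 of 22 E2F targets and 4 of 12 mitotic genes fell, and 3 of the other G1 genes rose and 3 fell.

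Markers of other cell types also moved along RB1. Of 5 osteoclast markers tested, 4 rose, including MMP9 (1.18) and ACP5 (1.11). Of 10 leukocyte markers tested, 5 rose, among them CD68 (0.79) and CSF1R (0.47). The macrophage marker AIF1 (0.08, adjusted p = 0.75) was not called, nor were CORO1A (0.27, adjusted p = 0.14), CD3E (0.27), CD2 (0.16) and LCK (0.10). Among endothelial markers, 2 of 5 rose. Of the cartilage genes, ACAN fell by 2.00 (adjusted p = 1.9e-07) and SOX9 fell by 0.68. The summed leukocyte level ranged from 112 to 7280 CPM over tumors and that of the cartilage genes from 0.432 to 88959 CPM. The part of these cells in the slopes was not tested.

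Along CDKN2A, 2 of 8 members were called while 18.2% of all genes were. CCNE1 rose by 0.07 for each doubling of CDKN2A (SE 0.02, adjusted p = 0.00051). E2F1 was lower by limma-voom (-0.06, SE 0.02, adjusted p = 0.028), and RB1 did not pass (-0.04, adjusted p = 0.055). The E2F1 call was kept in 8 of 13 alternatives. It was lost by edgeR (adjusted p = 0.056, or 0.058 without the tumor highest in CCND3), by DESeq2 (adjusted p = 0.082), in COTC021 alone (-0.024, adjusted p = 0.66) and in the deeper libraries alone (-0.020, adjusted p = 0.90). The CCNE1 call was kept in 11 of 13 and lost in COTC022 alone (adjusted p = 0.052) and in the deeper libraries alone (adjusted p = 0.34). In the reverse fit of the same pair CDKN2A rose by 1.20 for each doubling of CCNE1 (SE 0.32, adjusted p = 0.0088). CCNE1 encodes the cyclin that acts downstream of the step p16 blocks. Counts of the gene do not separate p16 from ARF, and the cause of this relation was not tested. Of all 13421 genes tested, 1339 fell along CDKN2A. Of the E2F targets 4 of 22 fell, led by CDC45 and CCNA2 (both -0.10), and 6 of 12 mitotic genes fell, led by PLK1 (-0.09). Of the 25 other G1 genes 4 fell and 0 rose, with the steepest slope for E2F5 (-0.12, adjusted p = 6.7e-07), a partner of the RB1 relatives. Without the 2 tumors farthest from the RB1 median 3 fell and 1 rose. Without the tumor highest in CCND3 4 fell and 0 rose by limma-voom, but 2 fell and 2 rose by edgeR.

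The relation of CDKN2A to E2F1 changed sign with the method. Along E2F1, CDKN2A had a slope of -0.63 by limma-voom (SE 0.22, adjusted p = 0.013) but 0.53 by edgeR (adjusted p = 0.027) and 0.53 by DESeq2 (adjusted p = 0.026). No direction is given to this pair here.

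E2F1 and CDK4 formed the firmest pair. Along E2F1, 4 of 8 members were called beside 53.4% of all genes, so the number itself was near the background. CDK4 rose by 0.37 for each doubling of E2F1 (SE 0.03, adjusted p = 3.2e-19), and E2F1 by 1.06 for each doubling of CDK4 (SE 0.09, adjusted p = 1.2e-19). The slopes kept their direction and their call in 10 of 10 alternatives each. CCNE1 rose along E2F1 by 0.20 (SE 0.05, adjusted p = 0.0012) and RB1 fell by 0.17 (SE 0.05, adjusted p = 0.0029). These were less firm. CCNE1 kept its call in 8 of 10 alternatives, not in COTC022 alone (adjusted p = 0.066) or in the deeper libraries alone (adjusted p = 0.32). RB1 kept it in 6 of 10, and its slope was -0.093 by edgeR (adjusted p = 0.082) and -0.096 by DESeq2 (adjusted p = 0.085), with adjusted p = 0.068 in COTC021 alone and 0.077 in the deeper libraries alone.

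The replication program followed E2F1 closely. All 22 E2F target genes listed rose along E2F1 and all 12 mitotic genes did, while 25.0% of all genes rose. Slopes were 0.81 for ORC1 (adjusted p = 2.5e-26), 0.78 for the helicase subunit MCM5 (adjusted p = 1.9e-32), 0.74 for MCM2, 0.73 for the thymidine kinase TK1 and 0.84 for CDC20. Of the other G1 genes 15 of 25 rose, led by E2F8 (0.66), E2F2 (0.64), E2F7 (0.60) and CDK2 (0.50), and 3 fell, namely RBL2 (-0.46, adjusted p = 3.8e-17), CDKN1B (-0.16) and the ubiquitin ligase subunit FBXW7 (-0.15). Immune and stromal genes ran the other way. Of the 10 leukocyte markers tested 9 fell along E2F1, 4 of 5 endothelial and 4 of 5 osteoclast markers fell, and so did 23 of the 25 GS-1 genes. The part of these cells in the E2F1 level was not tested.

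Along CDK4, 48.6% of all genes were called, and 3 of 8 members, so the number itself was not above the background. The members called were E2F1, CCNE1 (0.22, adjusted p = 0.034) and RB1 (-0.40, adjusted p = 4.3e-05). CCNE1 kept its call in 8 of 10 alternatives, not in COTC022 alone (0.11, adjusted p = 0.52) or in the deeper libraries alone (0.087, adjusted p = 0.84), and RB1 in 9 of 10, not in the deeper libraries alone (adjusted p = 0.25). The same 22 E2F targets and 12 mitotic genes rose, and of the other G1 genes 13 rose and 2 fell. Along CCNE1 far fewer genes were called, 7.36%, yet 4 of 8 members were. Besides CDKN2A these were E2F1 (0.38, adjusted p = 0.0054), CDK4 (0.17, adjusted p = 0.048) and RB1 (-0.33, adjusted p = 0.00056). Of 10 alternatives, the call was kept in 8 for RB1, in 7 for E2F1 and for CDKN2A and in 5 for CDK4. In the deeper libraries alone none of these 4 was called by limma-voom, with adjusted p from 0.76 for RB1 to 0.95 for CDK4, nor was any in COTC022 alone, with adjusted p from 0.20 for E2F1 to 0.66 for CDK4. In COTC021 alone only RB1 was called (adjusted p = 0.0083). CDK4 was also lost without the filter on low counts (adjusted p = 0.14) and with the library set as covariate (adjusted p = 0.051). Along CCNE1 17 of 22 E2F targets and 10 of 12 mitotic genes rose, while 0 of 10 leukocyte markers were called by limma-voom.

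**Figure D3:**
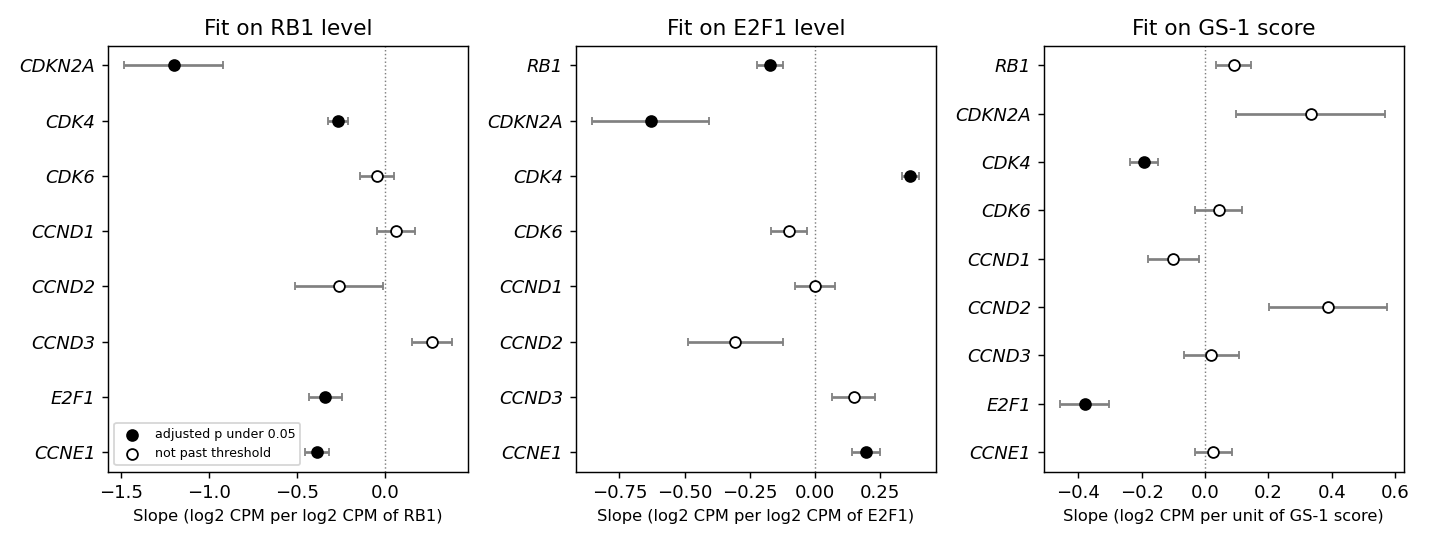
Slopes of the other members (points, log2 CPM) with SE bars for each doubling of RB1 (left), each doubling of E2F1 (middle) and each unit of the GS-1 score (right); filled points passed at an adjusted p under 0.05 by limma-voom. CDKN2A, CDK4, E2F1 and CCNE1 lie left of 0 along RB1, CDK4 and CCNE1 lie right of 0 along E2F1, and E2F1 and CDK4 lie left of 0 along the score; the CDKN2A slope along E2F1 is positive by edgeR and DESeq2, and that along RB1 is positive in the deeper libraries.

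Few calls linked the D-type cyclins and CDK6 to other members. Of 8 members, limma-voom called 0 along CCND1, where 1.45% of all genes were called, 0 along CCND2 (18.0%) and 0 along CCND3 (6.67%). At an unadjusted p under 0.05 these numbers were 0, 0 and 2. Beside such shares of all genes, few or no calls among 8 members are usual. The counts therefore do not set the cyclins apart. edgeR called 0, 1 and 0 members and DESeq2 1 in each, CCND2 along CCND1, CCND3 along CCND2 and CDK6 along CCND3. Along CDK6, where 22.4% of all genes were called, CCND3 alone was called among members (-0.23, SE 0.08, adjusted p = 0.033). The call rests on COTC021 tumor 64, the tumor highest in CCND3 and second lowest in CDK6. Without it the slope was -0.097 by limma-voom (adjusted p = 0.38) and -0.11 by edgeR (adjusted p = 0.36), against -0.71 by edgeR and by DESeq2 with it. The call was kept in 6 of 12 alternatives, and the slope was 0.24 in the deeper libraries alone (adjusted p = 0.60). The reverse slope was -0.14 (adjusted p = 0.18).

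GS-1 is a previously published gene signature that the study applied, and it reported immune pathways enriched in the tumors where the signature was high. The score used here is the mean z-score of the quantile-normalized levels of 25 of its genes, not of the whole signature. All 10 leukocyte markers tested rose with the score. Along it, 2 of 9 members were called and both fell, beside 48.4% of all genes called and 26.1% that fell. The number itself was thus not above the background. E2F1 fell by 0.38 for each unit of the score (SE 0.08, adjusted p = 1.2e-05) and CDK4 fell by 0.19 (SE 0.04, adjusted p = 8.6e-05). Both calls held in each trial alone and in each library set alone. RB1 had a slope of 0.09 (SE 0.06, adjusted p = 0.17), CDKN2A of 0.33 (SE 0.23, adjusted p = 0.24) and CCNE1 of 0.03 (SE 0.06, adjusted p = 0.74).

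Of the E2F targets 18 of 22 fell along the score, among them TYMS (-0.43, adjusted p = 5.4e-10), MCM2 (-0.42) and ORC1 (-0.40), and 12 of 12 mitotic genes fell. SKP2 (-0.46, adjusted p = 2.2e-08), CDKN1C (-0.37), E2F7 (-0.37) and CDK2 (-0.32) led the 9 other G1 genes that fell. RBL2 (0.30, adjusted p = 2.2e-06), CDKN1B (0.22) and MDM2 (0.13) rose. Of 8 osteoblast genes 6 fell, including ALPL (-1.12) and SP7 (-0.97), and 1 rose, SPP1 (0.47, adjusted p = 0.0042), which encodes osteopontin. How far a smaller share of tumor cells enters the fall of E2F1 and CDK4 was not tested. CCND2 had a slope of 0.39 (adjusted p = 0.074) by limma-voom and of -0.18 by edgeR (adjusted p = 0.34). CCND3 had 0.02 by limma-voom and was called at -0.35 by edgeR (adjusted p = 0.0036), but at -0.017 (adjusted p = 0.87) without the 1 tumor highest in CCND3.

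**Figure D4:**
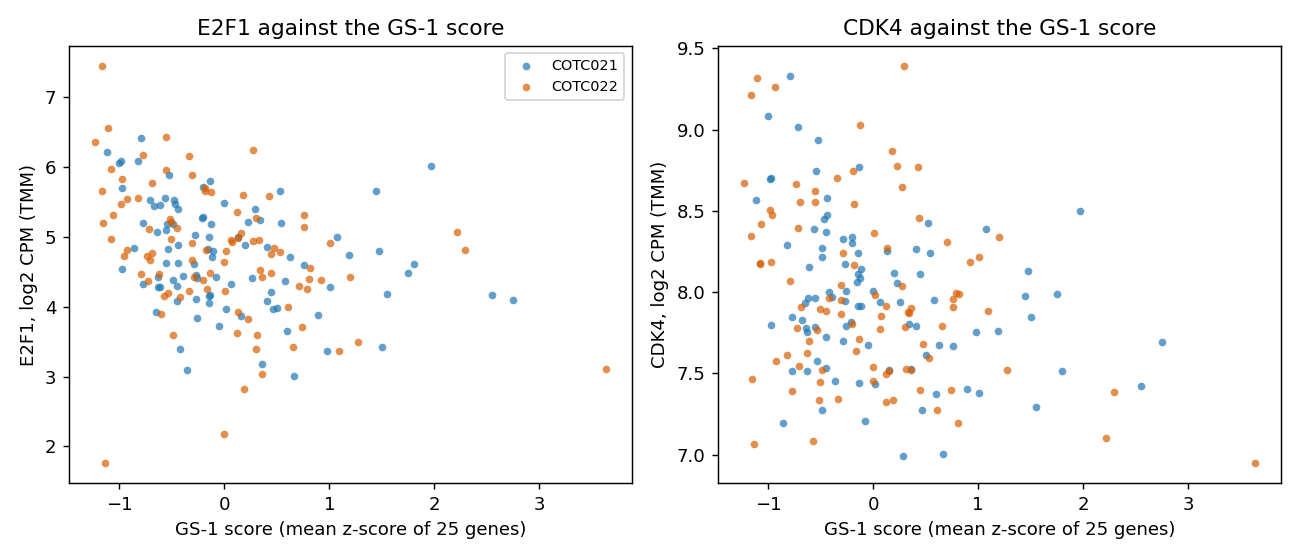
E2F1 (left) and CDK4 (right) against the GS-1 score in 186 tumors, log2 CPM (TMM) on the vertical axes and mean z-score of 25 genes on the horizontal ones, colored by trial. Both levels are lower at high scores in both trials, with slopes of -0.38 and -0.19 per unit.

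Single tumors stood far from the rest for some members. A robust z (distance from the median divided by the scaled median absolute deviation) beyond 3 was found 22 times, in 18 tumors. Over all genes kept by the filter the median number of such tumors was 1 above and 1 below, so a single one is usual. RB1 had 3 below, which 19.2% of genes reached or exceeded, and CCND3 had 7 above, which 0.939% did.

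COTC021 tumor 72 had 31 counts of RB1, or 3.82 CPM and 0.089 of the median. The flanking genes FNDC3A, RCBTB2 and ITM2B were each the lowest of 186 tumors there, at 0.073, 0.114 and 0.086 of their medians, while MED4, 248 kb away between midpoints, was at 1.31. Of 15 other genes starting within 1 Mb of RB1, 10 were under 0.5 of their median, against 21.2% of all genes in that tumor. The same tumor ranked 2 from the highest in both CDKN2A (108 CPM) and CCNE1 (29.1 CPM), 3 in CCND2 (532 CPM) and 8 in CDK4 (518 CPM).

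COTC022 tumor 30, with 77 counts of RB1 at 0.148 of the median, had 11 of the 15 neighbours under 0.5 of their median, against 14.3% of all its genes. LRCH1 (0.220) and SUCLA2 (0.489) were the lowest of 186 tumors there. Both were named for their likeness to RB1 over these same tumors, so their levels here are no independent sign of a local fall. LRCH1 lies 1.54 Mb from RB1 between midpoints, outside the 1 Mb used for the neighbours. COTC022 tumor 30 ranked 3 from the highest in CDK6 and E2F1, 4 in CCNE1 and 9 in CDKN2A. COTC021 tumor 38 differed from both in the genes near RB1. RB1 was at 0.359 of its median, but only 2 of the 15 neighbours were under 0.5, against 15.6% of all its genes. It was also the lowest tumor in CCND1 (3.14 CPM), the second lowest in CCND3 (21.0 CPM), and the fourth highest in CDKN2A. Chromosome 22 as a whole was low in all 3 tumors. Its median ratio was 0.575 in tumor 72, 0.717 in tumor 30 and 0.651 in tumor 38, against 0.999 over all genes in each. All 3 low tumors had E2F1 above its median, at 1.70, 3.19 and 1.64 times.

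COTC021 tumor 70 had 249 CPM of CCND1, 10.5 times the median. FADD, LTO1, TPCN2 and MRPL21, which flank it, were also the highest of 186 tumors, at 5.06, 8.68, 6.52 and 9.50 times. Of 12 other genes within 1 Mb, 11 were over 2 times their median, against 8.13% of all genes in that tumor. The 1 exception, MRGPRF, was at 0.084. RB1 ranked 5 from the highest in this tumor, and CCND3 5 from the lowest.

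COTC021 tumor 64 had 66723 counts of CCND3, 5269 CPM and 83.3 times the median. USP49, named after its value was seen, was at 86.2 times within 1 Mb, and BYSL, TOMM6 and YIPF3 at 12.9, 16.6 and 17.0 times were the highest of 186 tumors. Of 34 other genes within 1 Mb, 25 were over 2 times their median, against 11.0% of all genes. The same tumor was the second lowest in CDK6, at 2.96 CPM. The other 6 high tumors, all of COTC022 (16, 85, 81, 51, 61 and 21), had CCND3 at 4.77 to 7.09 times the median, with BYSL from 1.72 to 6.11 times and PPP2R5D from 1.65 to 4.06 times. BYSL, TOMM6, YIPF3 and PPP2R5D were named for their likeness to CCND3 over these same tumors, so their levels here are no independent sign of a local rise. The number of high tumors was not tested between the trials.

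COTC022 tumor 21 was the highest of 186 tumors in both E2F1 (175 CPM) and RB1 (109 CPM), the second highest in CCND3 (449 CPM) and the fifth highest in CDK4 (594 CPM), and had 0 counts of CDKN2A. Of 21 genes within 1 Mb of E2F1, 10 were over 2 times their median, against 13.6% of all genes. The median ratio over chromosome 24 was 1.40 in this tumor, against 1.01 over all genes. COTC022 tumor 14 was highest in CCNE1, at 34.2 CPM or 4.32 times the median, with POP4 at just under 2.00 times and URI1 at 0.881, and 0 of 5 neighbours within 1 Mb were over 2 times. COTC021 tumor 6 was highest in CDK6 (93.8 CPM, 4.83 times) and lowest in CCNE1 (2.53 CPM). Of 11 genes within 1 Mb of CDK6, 5 were over 2 times their median, against 12.6% of all genes. The median ratio over chromosome 14 was 1.95 in this tumor, against 0.97 over all genes. At the low end of E2F1 were COTC022 tumor 73 (3.38 CPM) and COTC022 tumor 35 (4.55 CPM), and CDK4 ranked 4 from the lowest in tumor 73.

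**Figure D5:**
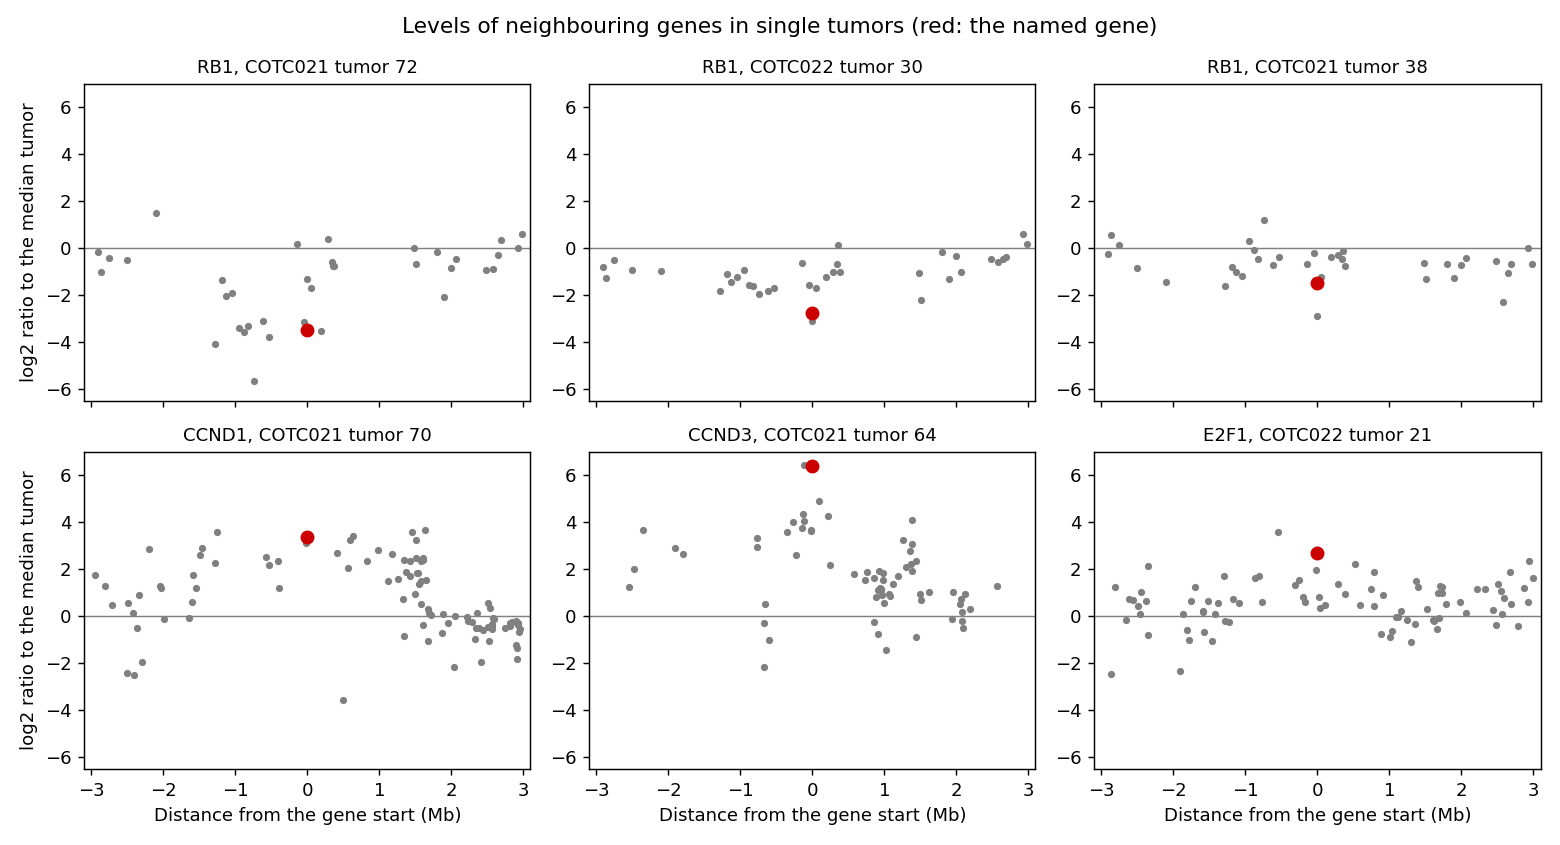
Log2 ratio of each gene's level to its median over 186 tumors, against the distance of its start from that of the named gene (Mb), in 6 single tumors; red marks the named gene. Neighbours are low around RB1 in COTC021 tumor 72 and COTC022 tumor 30 but mostly near the median in COTC021 tumor 38, and are raised around CCND1 in tumor 70, where 11 of 12 within 1 Mb are over 2 times, and around CCND3 in tumor 64, where 25 of 34 are.

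The share of similar genes that lay on a member's own chromosome differed between the members. As a description, the 5 named genes with the highest Spearman rho to RB1 were LRCH1 (0.61), SPRYD7 (0.60), SUCLA2 (0.58), INTS6 (0.58) and ITM2B (0.53), all on chromosome 22 within 2.54 Mb. Of the 50 genes most like RB1, 46.0% lay on chromosome 22, which carries 1.07% of the genes compared. For CCND3 the share on its own chromosome 12 was 98.0% (3.03% of genes), led by YIPF3 and PPP2R5D (both 0.61) and BYSL (0.60). For CDK4 it was 32.0%, led by PA2G4 (0.76), SHMT2 (0.69), SARNP (0.66), CDK2 (0.65) and MARS1 (0.65), all on chromosome 10, which carries 3.69% of genes. It was 16.0% for E2F1 on chromosome 24 (2.71% of genes) and 12.0% for CDKN2A on chromosome 11 (2.7% of genes), and from 4.0% to 8.0% for CDK6, CCND1, CCND2 and CCNE1. The genes of a tumor share its library and its cell content, and rho carries no p here.

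CDKN2A had 1 outstanding match, MTAP (0.78), the methylthioadenosine phosphorylase gene, whose midpoint lies 63.5 kb from that of CDKN2A. The next, ADH4 (0.50), URI1 (0.48), SP100 (0.48) and FAM149A (0.47), lie on other chromosomes. KLHL9, 443 kb from CDKN2A, had 0.45.

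E2F1 was most like UBE2C (0.75), DSN1 (0.74), POLE (0.74), SNRPA (0.73) and MCM5 (0.73), genes of mitosis, replication and splicing, of which UBE2C and DSN1 lie on chromosome 24 with E2F1. CCNE1 was most like GINS4 (0.44), MELK (0.44), BIRC5 (0.42), PCNA (0.41) and BRIP1 (0.40). The neighbours URI1 (0.08) and POP4 (0.09) were not among the genes like CCNE1. CDK6 was most like QKI (0.56), GNAQ (0.53), LATS1 (0.51), HOOK3 (0.51) and STRN (0.49), and CCND2 like the transcription factor gene PLAG1 (0.51), SLC16A12 (0.50), KLHL29 (0.48), MEIS2 (0.48) and CACNA1A (0.47). CCND1 had no close match, the highest being CDH3 (0.38), EPHA3 (0.36), EPHA2 (0.36), DPH3 (0.34) and LGR6 (0.34).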

How the data were processed

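Messenger RNA of frozen tumor biopsies was sequenced by the authors with a stranded poly(A) kit. They trimmed reads with Cutadapt, aligned them with STAR 2.7.0f to GSD_1.0 and quantified genes with RSEM 1.3.1. They deposited expected counts without normalization, in which a read that fits several genes is divided between them. Of these values 3.07% were not whole. They were rounded here. Of 198 columns, 12 were not used.

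The filterByExpr settings of the study (a minimum count of 10 and proportion of 0.5, with large.n at 5) kept 13422 genes, among them 9 of the 10 members. The model was limma-voom (limma 3.58.1, R 4.3.3) after TMM scaling. Each fit used all tumors and the trial as covariate, and a member was left out of its own fit. Alternatives used edgeR 4.0.16 (quasi-likelihood) and DESeq2 1.42.0, no filter, quantile normalization, library set, and single trials or library sets. Correlations used 100000 permutations (Python 3.11.15, scipy 1.17.1). The trial came from the sample titles, and tumors are numbered in accession order. Positions are from RefSeq on the same build.

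Members and gene lists were chosen with earlier results of these data known. Named are the members, the 5 genes most like each and up to 4 called genes per list and direction. Up to 3 flanking genes per side of RB1, CDKN2A, CDK4, CCND1 and CCNE1 are named too. USP49 and the leukocyte markers not called along RB1 were named after their values were seen. Genes with no symbol were not named. Each tumor is a separate dog, and depth limits precision for genes with few counts. Sequences were not used here.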

Additional observations from a re-analysis of the deposited data

How the results depend on the processing

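Depth limits CDKN2A and CDKN2B, where a count of 0 allows a true mean of up to 3 counts. In the 50 deeper libraries few tumors remain. Of 317 alternatives for single slopes, 244 kept direction and call, and none of the slopes of E2F1 and CDK4 on each other or on the GS-1 score lost its call. The number of called genes moved by over 1.5 times in these cases. With edgeR it was 653 along CCND1, 1379 along CCND3, 1530 along CCNE1 and 129 between trials, and with DESeq2 859, 1656, 1728 and 206. Without the filter it was 112 along CCND1, 591 along CCNE1, 4458 along CDKN2A and 0 between trials. In COTC021 alone it was 20 along CCND1, 431 along CCND2, 343 along CCND3, 237 along CCNE1, 71 along CDK6, 585 along CDKN2A, 3480 along the GS-1 score and 1771 along RB1. In COTC022 alone it was 0 along CCND1, 856 along CCND2, 186 along CCND3, 29 along CCNE1, 3882 along CDK4, 790 along CDKN2A, 4743 along E2F1 and 868 along RB1. In the deeper libraries alone it was 0 along CCND1, 26 along CCND2, 72 along CCND3, 0 along CCNE1, 596 along CDK4, 15 along CDK6, 3 along CDKN2A, 3317 along E2F1, 3271 along the GS-1 score, 205 along RB1 and 0 between trials. In the other libraries alone it was 37 along CCND1, 2223 along RB1 and 8 between trials. Fits on part of the tumors have fewer samples.

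Slopes that turned sign in the deeper libraries alone were those of CCND3 along CDK6 (0.24), of RB1 along CDKN2A (0.032), and of CCND1 (-0.21), CDK6 (0.27) and CDKN2A (0.79) along RB1. The CDK6 slope along RB1 was also 0.086 without the 2 tumors farthest from the RB1 median. CDKN2A along E2F1 was 0.53 by edgeR and 0.53 by DESeq2. Along the GS-1 score CCND2 was -0.18 by edgeR, -0.18 by DESeq2 and -0.17 by edgeR without the tumor highest in CCND3. CCND3 along the score was -0.35 by edgeR, -0.35 by DESeq2, -0.062 in COTC022, -0.046 in the other libraries, -0.023 with the score from TMM values and -0.017 by edgeR without that tumor. In these cases the cause was not tested. The correlation of RB1 and CDKN2A had r of -0.044 in COTC022, -0.115 without the 2 tumors and 0.188 in the deeper libraries, and rho of -0.231 in COTC021, -0.174 in the other libraries, 0.094 in COTC022 and 0.216 in the deeper libraries. Over all tumors, with a pseudocount of 2 CPM, r was -0.259 on levels scaled by the library total and -0.298 on quantile-normalized levels. The rho was -0.063 and -0.061 in the same order. Leaving out any 1 tumor gave r from -0.230 to -0.155. Scaled by the library total with a pseudocount of 2 CPM, outlying tumors numbered 1 for CCND1, 1 for CDK6, 27 for CDKN2A and 82 for CDKN2B. On that scale RB1 had 2 tumors below instead of 3, and E2F1 had 1 below instead of 2. The alternatives without single tumors were chosen after seeing the data. No paired analysis was possible because each tumor comes from another dog.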
